A study of Sus scrofa with 18 samples.

Results

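The genes described here are 5 markers of retinal interneurons, the cells that carry and shape the light signal between photoreceptors and ganglion cells. They were SCGN and PRKCA as bipolar cell markers, LHX1 and SEPT4 as horizontal cell markers, and GLRB, a subunit of the glycine receptor. All probe sets whose single gene symbol in the platform annotation was one of these names were taken, which gave 7 probe sets for 5 genes out of 10099 probe sets with a single symbol and 24123 in all. PRKCA and SEPT4 had 2 probe sets each and the others had 1, and the brightest one stood for its gene. The 18 retinas came from male domestic piglets, a cross of Landrace and Large White, taken at postnatal day 38. The labels give no animal number, so each retina is taken here as 1 piglet. The sialyllactose group was 9 piglets raised on a pig milk replacer enriched with sialyllactose, an oligosaccharide of milk in which sialic acid is joined to lactose. The control group was 9 piglets raised on the replacer alone, called a basal level in the labels. The animals entered the study at 3 days of age and were placed in the groups at random. Each retina gave 1 Affymetrix pig array, and values are log2 signals.

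Bipolar cells receive glutamate from rods and cones and pass the signal to amacrine and ganglion cells. Rod bipolar cells are recognised by protein kinase C alpha, the product of PRKCA, and some cone bipolar cells of mouse, rat and rabbit carry secretagogin, an EF-hand calcium-binding protein encoded by SCGN. Horizontal cells feed back onto photoreceptor terminals. Their settling in the right layer in mouse depends on the LIM homeodomain factor LHX1, and SEPT4, a GTP-binding septin that builds filaments at the cell cortex, is listed among their markers in mouse. GLRB encodes the beta subunit that ties glycine receptors to the scaffold protein gephyrin, and it is used by bipolar, amacrine and ganglion cells, so it marks an inhibitory receptor rather than 1 cell type.

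Arrays correlated at 0.981 to 0.992 with each other over the 16799 tested probe sets. Control replicate 2 stood apart, with a mean correlation to the other arrays of 0.983 where the other 17 arrays had 0.988 to 0.990, and it had the lowest array quality weight (0.352). The signal of the 3′ minus the 5′ control probe set, which grows as RNA degrades, was 3.27 ± 0.28 in sialyllactose and 3.15 ± 0.25 in control retinas for actin (log2, SD, n = 9 each). For GAPDH it was 1.41 ± 0.15 in sialyllactose and 1.43 ± 0.13 in control retinas. The tissue label was borne out by 2 bright photoreceptor genes. SAG, rod arrestin, was at 10.25 to 10.74 in sialyllactose and 10.51 to 10.81 in control retinas. ARR3, cone arrestin, was at 9.40 to 10.10 in sialyllactose and 9.11 to 10.18 in control retinas. The other tested photoreceptor genes were dimmer. The rod gene CNGA1 averaged 3.47 in sialyllactose and 3.19 in control retinas. The other cone genes averaged from 1.67 (PDE6C) to 5.20 (OPN1SW) in sialyllactose and from 1.64 to 5.14 in control retinas. The cell types named by the 5 genes were less well covered. Of 17 genes listed for rod bipolar cells and the ON pathway, 1 had a named probe set, PRKCA itself. Of 21 listed cone bipolar genes 3 did, and of 19 listed horizontal cell genes 5 did. The defining markers GRM6, TRPM1, VSX1, ONECUT1 and CALB1 had none and are not analysed here. The labels bipolar and horizontal were therefore not checked on other markers. The few other tested genes of these lists were the cone bipolar gene LHX3 and the horizontal cell genes TFAP2B, NEFL and TPM3. Their levels are given with their lists.

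The signals differed in how far they stood above the dim end of the array. By mean level the brightest probe set of SEPT4 lay at percentile 94.8 of the probe sets that are not controls and that of SCGN at 75.9. The probe sets of PRKCA (45.4), GLRB (41.5) and LHX1 (34.9) lay in the lower part, and the second probe sets of PRKCA (17.7) and SEPT4 (22.7) fell under the level filter and were left out of the main test. These percentiles describe the probes and do not rank the amounts of RNA. So 5 of 7 probe sets, 1 per gene, passed the filter, which used the mean over both diets. In whole retina, fewer cells of a type and less RNA per cell cannot be told apart.

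The first comparison asked whether the 5 genes differed between the diets. Both bipolar markers had lower means with sialyllactose, and neither passed the test across all probe sets. SCGN ran from 3.97 through a median of 4.71 to 4.85 in sialyllactose retinas and from 4.50 through 4.76 to 5.15 in control retinas. The groups overlapped widely, although the lowest retina was sialyllactose replicate 4 and the highest was control replicate 1. SCGN averaged 4.60 ± 0.27 in sialyllactose and 4.79 ± 0.19 in control retinas, a difference of -0.19 (95% interval -0.40 to 0.02, limma adjusted p = 0.789). As a fold this was 0.878, with an interval of 0.759 to 1.02. Without sialyllactose replicate 4 the difference was -0.11.

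PRKCA ran from 2.10 through a median of 2.27 to 2.36 in sialyllactose retinas and from 2.21 through 2.36 to 2.91 in control retinas. All 9 sialyllactose retinas lay below the control median, while the groups still overlapped. The control group held the 2 highest retinas, replicate 2 at 2.91 and replicate 5 at 2.67, which lay above all others. PRKCA averaged 2.25 ± 0.10 in sialyllactose and 2.44 ± 0.22 in control retinas. The difference was -0.19 (95% interval -0.35 to -0.03), a fold of 0.879 with an interval of 0.786 to 0.983. The unadjusted limma p was 0.0253, the two-sided exact permutation p was 0.0166, and the adjusted p over all probe sets was 0.753. Without control replicate 2, the array that stood apart, the difference was -0.13 (95% interval -0.25 to -0.003, limma unadjusted p = 0.0449, adjusted p = 0.756). Without control replicate 5 it was -0.16 (limma unadjusted p = 0.0549). The dim second probe set of PRKCA had the other sign, at 1.08 ± 0.19 in sialyllactose and 1.02 ± 0.17 in control retinas (difference 0.06, limma adjusted p = 0.934 without the level filter). The mean over both probe sets, chosen after seeing the data, gave a difference of -0.06 (exact permutation p = 0.200).

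The horizontal cell markers gave small differences of opposite sign. LHX1, measured near the dim end, ran from 1.49 through a median of 1.64 to 1.84 in sialyllactose retinas and from 1.44 through 1.74 to 2.02 in control retinas. Control retinas held both the highest value, in replicate 2, and the lowest, in replicate 5. LHX1 averaged 1.68 ± 0.11 in sialyllactose and 1.74 ± 0.17 in control retinas, a difference of -0.06 (95% interval -0.20 to 0.08, limma adjusted p = 0.910). It was -0.03 without control replicate 2, -0.04 without sialyllactose replicate 4 and -0.10 without control replicate 5.

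SEPT4 ran from 6.62 through a median of 6.78 to 6.95 in sialyllactose retinas and from 6.55 through 6.62 to 6.99 in control retinas. The control values fell into a low set and a high pair, replicates 2 and 7 at 6.99 each, and 8 of 9 sialyllactose retinas lay above the control median. The means were 6.76 ± 0.10 in sialyllactose and 6.71 ± 0.17 in control retinas, a difference of 0.05 (95% interval -0.09 to 0.19, limma adjusted p = 0.933). It was 0.02 without sialyllactose replicate 4 and 0.08 without control replicate 2 or control replicate 7. The dim second probe set averaged 1.25 ± 0.16 in sialyllactose and 1.17 ± 0.12 in control retinas.

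GLRB ran from 1.95 through a median of 2.13 to 2.41 in sialyllactose retinas and from 1.60 through 2.01 to 2.28 in control retinas. Of the sialyllactose retinas 8 of 9 lay above the control median, and 3 control retinas lay below all sialyllactose retinas, the lowest being replicate 7. Control replicates 1, 2 and 8 (2.21, 2.23 and 2.28) in turn lay above every sialyllactose retina but replicate 8. The exact rank-sum p was 0.489. GLRB averaged 2.14 ± 0.12 in sialyllactose and 2.02 ± 0.22 in control retinas, a difference of 0.12 (95% interval -0.05 to 0.29, limma adjusted p = 0.852). Without control replicate 7 it was 0.07. Without sialyllactose replicate 8, the highest retina, it was 0.08.

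**Figure D1:**
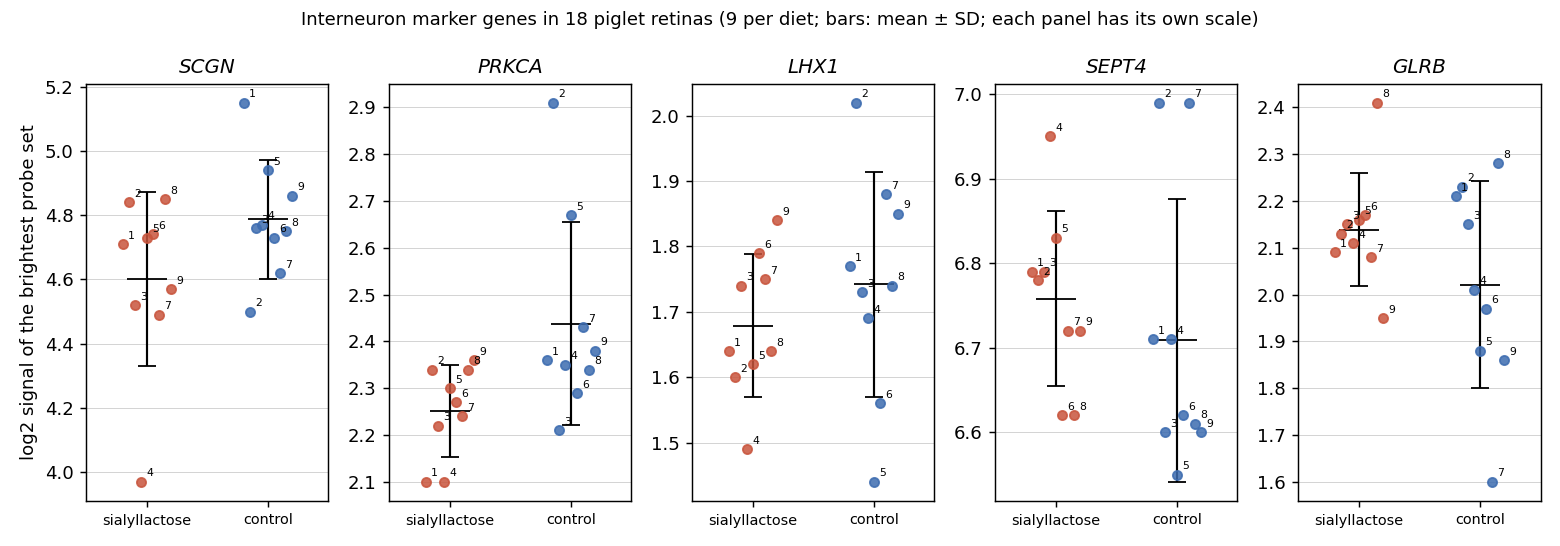
Log2 signal of the brightest probe set of each gene (vertical axes, 1 scale per panel) in 9 sialyllactose retinas (left, red) and 9 control retinas (right, blue), with each point numbered by its replicate and bars for mean ± SD. SCGN is lowest in sialyllactose replicate 4 (3.97), PRKCA is highest in control replicates 2 and 5 (2.91 and 2.67), and the groups overlap for every gene.

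Of the 5 tested probe sets none had an adjusted p under 0.05, where 0% of all tested probe sets did, and 1, PRKCA, had an unadjusted p under 0.05, where 6.3% did. That one was lower with sialyllactose, as were 3.36% of all tested probe sets at this threshold, and 2.94% were higher. Of the 5 genes, 3 had lower means and 2 higher means with sialyllactose, where 53.4% of all tested probe sets had lower means. No gene had groups without overlap. The signs of all 5 differences were the same with arrays centred on their medians, with renewed quantile normalization and without any 1 array. In simulated data of this design limma recovered 32.8% of changes of 1.19-fold and 86.6% of changes of 1.41-fold. The simulation had independent noise and 67 probe sets changed at each of these sizes, so its shares need not hold for these arrays. Changes of 1.19-fold were missed there more often than not, and the differences seen here were smaller.

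The second comparison set the 5 genes beside 30 other tested genes of the same families, pathways and cell types. None of the 30 passed the test in either direction. Means were lower with sialyllactose for 23 and higher for 7, with a median difference of -0.04 against -0.007 over all tested probe sets. As deposited, 53.4% of all tested probe sets had lower means. The split moved with scaling: 19 were lower with arrays centred on their medians and 21 after renewed quantile normalization. The median difference over all tested probe sets was then 0.0111 and 0.0021. The share of all probe sets with lower means was not taken under these scalings, so the counts under them have no such reference. Across these lists the diet differences ran from -0.21 to 0.04.

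Among the 6 other septins, the filament-forming relatives of SEPT4, 4 had lower and 2 had higher means, and 3 were lower with centred arrays. SEPT8 was at 6.94 ± 0.16 in sialyllactose and 7.11 ± 0.18 in control retinas (difference -0.16, limma adjusted p = 0.779), and its second probe set had the other sign. SEPT11 was at 5.88 ± 0.19 in sialyllactose and 6.05 ± 0.21 in control retinas (difference -0.17, limma adjusted p = 0.783), with both probe sets of that sign. In the protein kinase C list of 5 other genes 4 had lower means, under each scaling. PRKCB, another classical isoform, was at 4.45 ± 0.29 in sialyllactose and 4.53 ± 0.30 in control retinas, and MARCKS, a substrate of these kinases, at 7.61 ± 0.11 in sialyllactose and 7.68 ± 0.14 in control retinas.

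Of 6 other LIM homeobox genes and cofactors, 5 had lower means under each scaling. LMO3, a LIM-only protein, was at 2.08 ± 0.11 in sialyllactose and 2.29 ± 0.23 in control retinas (difference -0.21, 95% interval -0.38 to -0.04, limma adjusted p = 0.753). LHX3, a LIM homeobox gene also held by the cone bipolar list, was near the dim end at 1.84 ± 0.26 in sialyllactose and 1.97 ± 0.10 in control retinas, and 1 of its 2 probe sets had that sign. Of 7 other EF-hand calcium sensors and buffers, relatives of SCGN, 6 had lower means as deposited and 4 under either other scaling. S100B, which glia also express, was at 7.84 ± 0.41 in sialyllactose and 8.02 ± 0.35 in control retinas, and CALM3, a calmodulin gene, at 7.32 ± 0.08 in sialyllactose and 7.39 ± 0.11 in control retinas, with 4 of 6 probe sets of that sign.

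The glycine receptor and transport list held 3 other tested genes, GPHN, GAD1 and GAD2, of which GAD1 and GAD2 serve GABA rather than glycine. All 3 had lower means as deposited and 2 with centred arrays, while GLRB itself had a higher mean. GPHN, which encodes gephyrin, was at 5.50 ± 0.08 in sialyllactose and 5.56 ± 0.12 in control retinas (difference -0.06, 95% interval -0.17 to 0.05). GAD1, a GABA-synthesising enzyme also held by the amacrine list, was at 7.31 ± 0.14 in sialyllactose and 7.37 ± 0.17 in control retinas. No glycine receptor alpha subunit had a named probe set here. The 3 other horizontal cell genes were TFAP2B, NEFL and TPM3, of which amacrine cells also use the first and ganglion cells the second. TPM3, a tropomyosin, was at 5.99 ± 0.06 in sialyllactose and 6.07 ± 0.10 in control retinas, and 1 of its 3 probe sets had that sign. NEFL, a neurofilament, was at 9.77 ± 0.18 in sialyllactose and 9.74 ± 0.24 in control retinas, with 1 of 2 probe sets of that sign. TFAP2B, a transcription factor, was at 4.97 ± 0.15 in sialyllactose and 4.94 ± 0.13 in control retinas.

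**Figure D2:**
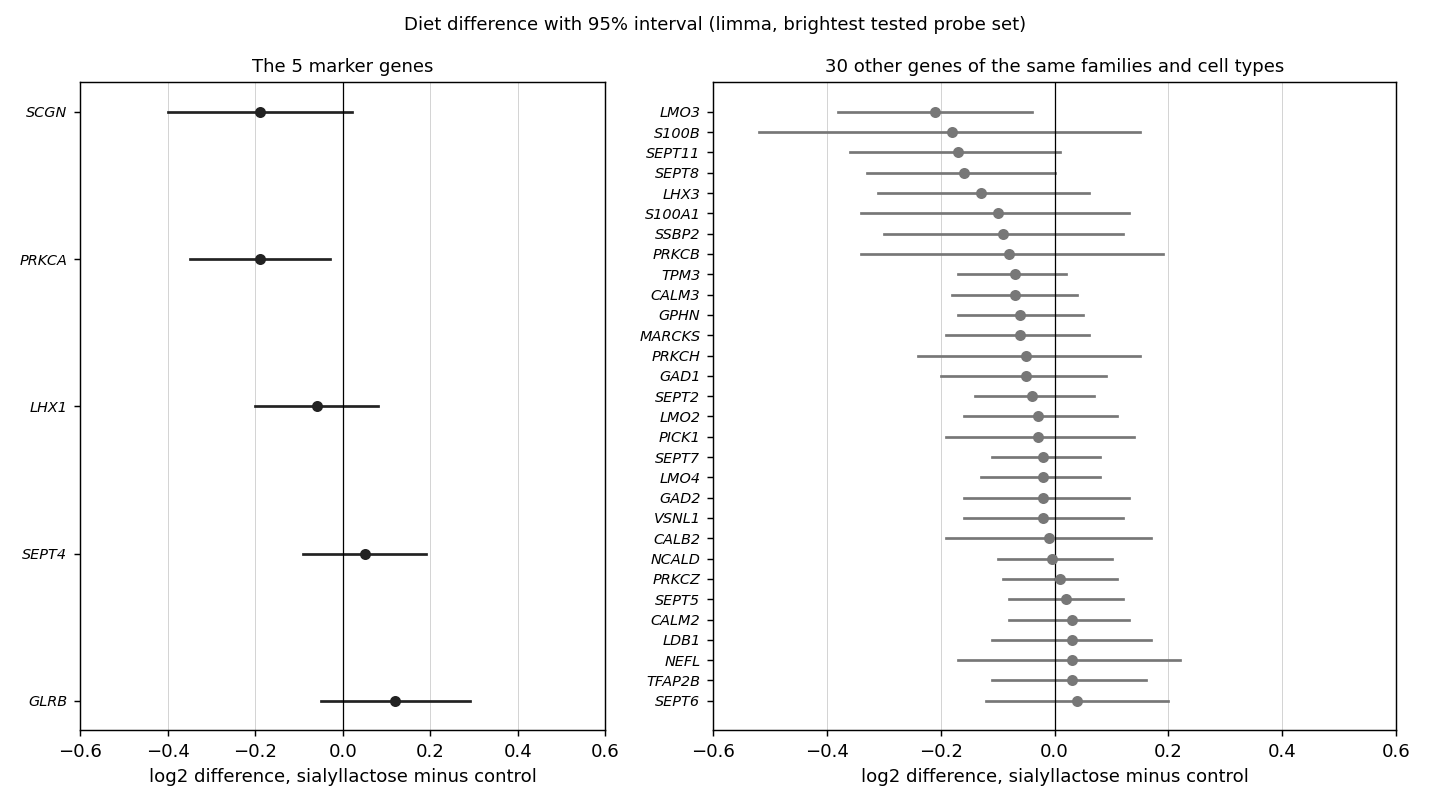
Difference of mean log2 signal, sialyllactose minus control (horizontal axes), with its 95% interval from limma for the 5 marker genes (left) and for the 30 other genes of their families and cell types (right). Among the markers the interval of PRKCA (-0.35 to -0.03) lies below 0 and the other 4 include it, and none of the 35 genes shown passed the test over all probe sets.

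A further comparison asked whether the 5 genes moved together from retina to retina. Over 18 retinas and 10 pairs, 1 pair stood out, SCGN with SEPT4. Retinas with a high SCGN signal had a low SEPT4 signal, with Pearson r = -0.60 (permutation p = 0.00657, Benjamini-Hochberg adjusted over the 10 pairs 0.0657) and Spearman rho = -0.69 (permutation p = 0.00198, adjusted 0.0198). The adjusted value thus passed 0.05 by rank and not by Pearson's r. The 3 retinas with the highest SEPT4 signal, control replicates 2 and 7 and sialyllactose replicate 4, had SCGN at 4.50, 4.62 and 3.97, and the retina with the lowest SEPT4, control replicate 5, had SCGN at 4.94. Of the 16798 other tested probe sets, 0.286% had a more negative r with SCGN than SEPT4 had, and 0.923% had a more negative r with SEPT4 than SCGN had.

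The inverse relation was present in each diet, with r = -0.69 among the 9 sialyllactose retinas (exact permutation p = 0.0432) and r = -0.59 among the 9 control retinas (exact permutation p = 0.0904). Without control replicate 1 and sialyllactose replicate 4, the retinas farthest from the SCGN median, r was -0.63. Without any 1 retina it ran from -0.66 (without control replicate 1) to -0.50 (without sialyllactose replicate 4), and without control replicate 2 it was -0.59. Among control retinas alone it was -0.36 without control replicate 2. The second, dim probe set of SEPT4 did not follow, with r = -0.14 to SCGN, and its r with the bright SEPT4 probe set was -0.34 (rho = -0.34, permutation p = 0.166 and 0.168).

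The other 9 pairs had Pearson r between -0.15 and 0.38 and adjusted p from 0.627 to 0.942. The presumed bipolar pair SCGN and PRKCA had r = 0.22 and rho = 0.38, and r was -0.03 without sialyllactose replicate 4 and 0.57 without control replicate 2. The horizontal pair LHX1 and SEPT4 had r = 0.29 and rho = 0.17, and 0.05 without control replicate 2. Neither pair passed the test. PRKCA was taken as a rod bipolar and SCGN as a cone bipolar marker, so only LHX1 and SEPT4 were assigned to the same cell type. PRKCA and LHX1 had the highest r, 0.38, which was -0.05 without control replicate 2 and 0.73 without control replicate 5. SCGN and LHX1 had r = 0.02 over all retinas and -0.63 without control replicate 1 and sialyllactose replicate 4 (permutation p = 0.00911, adjusted 0.0455), so its value turned on those 2 retinas.

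In 5 of the 10 pairs r had opposite signs in the diets. The widest gap was that of LHX1 and SEPT4, with r = -0.66 among 9 sialyllactose retinas (exact permutation p = 0.0501) and r = 0.74 among 9 control retinas (exact permutation p = 0.0228). Without control replicate 2, high in both genes, the control value was 0.59. Sialyllactose replicate 4 had the lowest LHX1 (1.49) and the highest SEPT4 (6.95) of its group, and the sialyllactose value without it is not given here. The difference between the diets was not tested.

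**Figure D3:**
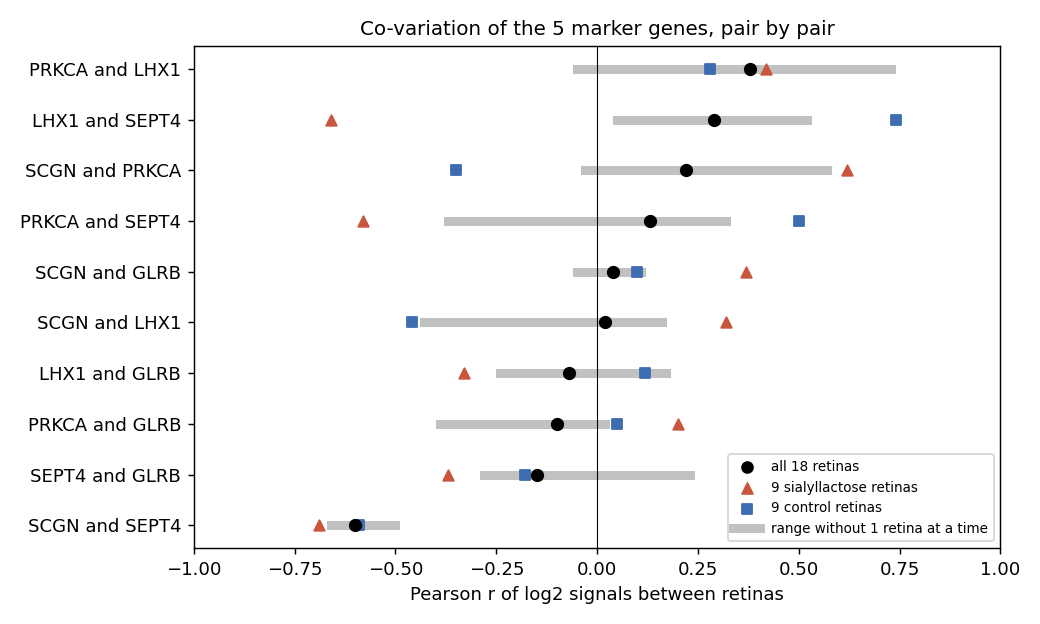
Pearson r of log2 signals between retinas (horizontal axis) for each of the 10 pairs, in all 18 retinas (black), in 9 sialyllactose retinas (red triangles) and in 9 control retinas (blue squares), with the range over fits without 1 retina at a time (grey). SCGN and SEPT4 stay negative throughout (-0.66 to -0.50), and the other pairs lie between -0.15 and 0.38 and the ranges of 8 of these 9 cross 0.

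The 5 genes were then set beside the mean level of 9 marker lists of other retinal cells and states, 45 relations in all. SCGN moved with the score of 10 endothelial and pericyte genes, with r = 0.74 (permutation p = 0.00066, adjusted over the 45 relations 0.0297) and rho = 0.41 (permutation p = 0.0937). Pearson's r was positive for 9 of the 10 genes, from -0.35 for ESAM to 0.75 for CLDN5, the claudin of endothelial tight junctions. Both are named here for these extremes after their values were seen. By rank most of these relations were weaker, with rho of 0.54 for CLDN5, 0.21 for ACTA2 (r = 0.53) and 0.03 for PECAM1 (r = 0.2). Among genes with positive r, rho was above r only for VWF (0.38 against 0.36) and PDGFRB (0.41 against 0.37). TEK, the angiopoietin receptor and the gene of the list with the smallest diet p, had r = 0.69 (rho = 0.45). It was at 1.62 ± 0.17 in sialyllactose and 1.86 ± 0.14 in control retinas. Without sialyllactose replicates 4 and 7, where the vessel score was lowest, r was 0.43. Within diets r was 0.65 among the 9 sialyllactose retinas and 0.74 among the 9 control retinas. The score averaged -0.06 ± 0.15 in sialyllactose and 0.06 ± 0.10 in control retinas, as mean log2 deviation from each gene's mean. With deviations from the diet means r was 0.68 and the adjusted p 0.0904. The same 2 retinas had the highest scores of the 12 interferon response genes, 1.55 and 1.68, and r of SCGN with that score was -0.55 over all retinas (rho = -0.42, adjusted p = 0.260) and -0.09 without them.

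SEPT4 had r = 0.68 with the score of 4 cone genes (permutation p = 0.00232) and rho = 0.56 (permutation p = 0.0172), and the adjusted p of 0.0522 did not pass 0.05. The highest single r was 0.72, with ARR3, and the lowest 0.06, with the dim PDE6C, a cone phosphodiesterase subunit, again named for these extremes. GRK7, the cone opsin kinase and the gene of the list with the smallest diet p, had r = 0.52, and was at 3.70 ± 0.19 in sialyllactose and 3.52 ± 0.30 in control retinas. Without control replicate 7 and sialyllactose replicate 2 r was 0.59, and it was 0.29 among sialyllactose and 0.81 among control retinas. With centred arrays it was 0.70 and the adjusted p was 0.0286. SCGN had r = -0.42 with the cone score (rho = -0.44, permutation p = 0.0854 and 0.0673), and SEPT4 had r = -0.49 with the vessel score (rho = -0.46, permutation p = 0.0357 and 0.0577), neither of which passed adjustment. Thus the SCGN and SEPT4 signals also had opposite signs of r with both scores, and the part of cone and vessel content in their inverse relation was not tested. GLRB had its highest r with the ganglion cell score, 0.53 (rho = 0.37, adjusted p = 0.260), which was 0.13 without control replicate 7 and sialyllactose replicate 9. No relation of PRKCA or LHX1 with a list passed. The 3′ minus 5′ signal had r between -0.21 and 0.21 with all 5 genes (adjusted p = 0.980 for all 10 relations).

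**Figure D4:**
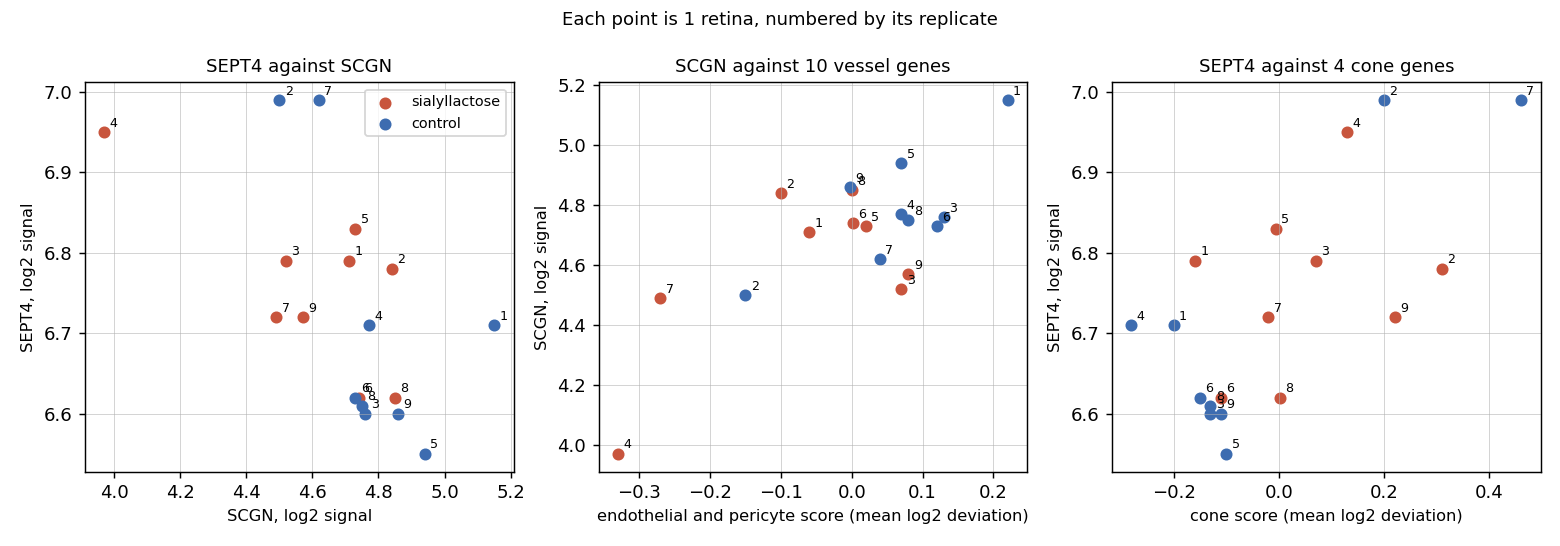
SEPT4 against SCGN (left, log2 signals), SCGN against the mean log2 deviation of 10 endothelial and pericyte genes (middle) and SEPT4 against that of 4 cone genes (right), each point 1 retina numbered by its replicate, with sialyllactose in red and control in blue. SEPT4 falls as SCGN rises (r = -0.60), and sialyllactose replicate 4 lies at the low end of SCGN (3.97) and of the vessel score (-0.33).

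For each gene the 3 most similar of 5705 other named genes were taken by Pearson r over 18 retinas on deviations from the diet means. For SCGN they were SPARCL1, a secreted matrix protein (r = 0.76), CLDN5 (0.74) and GABARAPL2, an autophagy protein (0.72). Without the 2 retinas farthest for SCGN these were 0.53, 0.53 and 0.58. For SEPT4 they were DDRGK1 (0.87), EMC8, part of an endoplasmic reticulum membrane complex (0.83), and POLR2L, a subunit of RNA polymerases (0.80), and 0.75, 0.59 and 0.53 without its 2 farthest retinas. None of these genes belonged to the bipolar or horizontal lists. Those lists held only LHX3, TFAP2B, NEFL and TPM3 among the 5705 genes, so their absence carries no information on cell type.

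For PRKCA they were LOC100522678 (0.88), TMEM40 (0.83) and PRCP, a carboxypeptidase (0.78), and without the 2 farthest retinas these were 0.69, 0.61 and 0.44. A second probe set of TMEM40 had r = 0.12. For LHX1 they were MGRN1, a ubiquitin ligase (0.85), POLDIP3 (0.85) and PRPF19, a splicing factor (0.83), and 0.76, 0.73 and 0.69 without the 2 farthest. One of the 3 probe sets of POLDIP3 had r = 0.04. For GLRB they were UBE2QL1 (0.86), CBY1 (0.81) and PPP1R11, an inhibitor of protein phosphatase 1 (0.80), and 0.78, 0.73 and 0.65 without the 2 farthest. The points of each r share array and normalization, and for the dim probe sets of PRKCA, LHX1 and GLRB the spread between retinas was 0.17, 0.14 and 0.18 (SD within diets, log2).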

How the data were processed

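RNA of 18 piglet retinas was measured on 1 array each. The deposited values are on the log2 scale, already normalized. The authors made them with Affymetrix Expression Console and RMA, per the submitters' processing notes. RMA usually subtracts background, matches the arrays' distributions and then combines the probes of a set. Versions and settings are not given in the sources used here. A shift common to most genes is lost in that step, and differences of dim probe sets come out too small. Groups came from the sample titles.

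From the file 124 control probe sets and the 30% of the others with the lowest mean (7200) were left out, and limma 3.58.1 (R 4.3.3, lmFit and eBayes) was fitted to 16799 probe sets with Benjamini-Hochberg adjustment and a threshold of 0.05. Correlations used 100000 permutations, or all permutations within a diet, with Python 3.11.15. A list score is the mean deviation of its tested genes, for lists of at least 3. The replicate number was checked as a pairing: correlations of deviations between same-numbered arrays ran from -0.113 to 0.164. Named were the 5 genes, up to 2 genes of the smallest p per related list and 3 similar genes each. Members and lists were chosen with earlier results of these data known. The labels number the replicates of each diet and give no animal, litter, batch or scan date. P-values therefore measure the spread between these samples, taken here as separate piglets. No genome coordinates are given, since no array build is named in the sources used here. The number of arrays limits the precision.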

Additional observations from a re-analysis of the deposited data

Results flagged for a closer look

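In 14 groups of 9 retinas (7 probe sets in both diets), 2 retinas stood far from the others of their group, where chance puts about 1 in 20 groups past the 95% limit of Dixon's ratio. SCGN in sialyllactose replicate 4 was at 3.97, with the next retina at 4.49 (ratio 0.591). The same retina had an endothelial and pericyte score of -0.33, an interferon score of 1.55 and a cone score of 0.13. GLRB in sialyllactose replicate 8 was at 2.41, with the next retina at 2.17 (ratio 0.532), and the retina had a ganglion cell score of 0.09. Control replicate 2, high in PRKCA (2.91), LHX1 (2.02) and SEPT4 (6.99), did not pass this limit for any of them. The ratio rests on the gap to the nearest retina, which was control replicate 5 for PRKCA (2.67) and control replicate 7 for SEPT4 (6.99). It therefore cannot show for these genes whether control replicate 2 stood apart.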

How the results depend on the processing

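With the dimmer 50% of probe sets left out, 697 probe sets had an unadjusted p under 0.05 (249 higher and 448 lower with sialyllactose), against 1059 in the reported fit (494 higher and 565 lower). PRKCA, LHX1 and GLRB had no value there. With arrays centred on their medians the split was 790 higher and 342 lower, and with renewed quantile normalization 567 higher and 479 lower. No setting gave an adjusted p under 0.05, with limma counts at an unadjusted p under 0.05 of 929 to 1233 without 1 array, and 951 by the exact rank-sum test. Of 9 same-numbered pairs 3 had r above 0.1, and 3 of 9 sialyllactose arrays were closest to their own number. Without a chance level, pairing is undecided. With the replicate number as a block 1140 probe sets had an unadjusted p under 0.05, none was called, and PRKCA stayed at -0.19 (limma adjusted p = 0.725). The 5 diet differences kept their sign in every setting that gave a value. Without 1 array, SCGN ran from -0.22 to -0.11, PRKCA from -0.21 to -0.13, LHX1 from -0.10 to -0.03, SEPT4 from 0.02 to 0.08 and GLRB from 0.07 to 0.15. Each gene had 1 tested probe set, so averaging tested probe sets gave the reported values. Averaging both probe sets, the dim one included, gave -0.06 for PRKCA and 0.07 for SEPT4 (exact permutation p = 0.200 and 0.0747), an alternative chosen after seeing the data.

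Most correlations were less stable, and the cause was not tested. Without 1 array, r ran from -0.03 to 0.57 for SCGN and PRKCA, from -0.43 to 0.16 for SCGN and LHX1, from -0.66 to -0.50 for SCGN and SEPT4, from -0.05 to 0.11 for SCGN and GLRB, and from -0.05 to 0.73 for PRKCA and LHX1. It ran from -0.37 to 0.32 for PRKCA and SEPT4, from -0.39 to 0.02 for PRKCA and GLRB, from 0.05 to 0.52 for LHX1 and SEPT4, from -0.24 to 0.17 for LHX1 and GLRB, and from -0.28 to 0.23 for SEPT4 and GLRB. Without the 2 arrays farthest from the first gene's median, r was -0.03 for SCGN and PRKCA, -0.63 for SCGN and LHX1, -0.63 for SCGN and SEPT4 (adjusted p = 0.0455), -0.008 for SCGN and GLRB, -0.18 for PRKCA and SEPT4, -0.16 for LHX1 and SEPT4 and 0.14 for SEPT4 and GLRB. With the same mean over both probe sets, r was -0.39 for SCGN and PRKCA, -0.03 for LHX1 and SEPT4 and 0.14 for SEPT4 and GLRB. SCGN and LHX1 had r = -0.008 after quantile normalization. With deviations from the diet means SCGN and LHX1 had r = -0.08, PRKCA and GLRB 0.08, and LHX1 and GLRB 0.007. SCGN and SEPT4 had r = -0.59 with these deviations (adjusted permutation p = 0.118). Without 1 array, the adjusted permutation p of SCGN and SEPT4 ran from 0.0253 (without control replicate 1) to 0.215 (without sialyllactose replicate 4). Whether this pair passed 0.05 by Pearson's r thus depended on the setting.

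Against the list scores, centring arrays gave 0.70 for SEPT4 with cone genes (adjusted p = 0.0286). Deviations from the diet means gave 0.68 for SCGN with endothelial genes (adjusted p = 0.0904). The same deviations turned the sign of 9 weak relations: -0.09 for SCGN with microglia, -0.22 for PRKCA with endothelial genes, -0.03 for LHX1 with astrocyte and with endothelial genes, 0.007 for SEPT4 with amacrine genes and 0.08 with astrocyte genes, and for GLRB 0.14 with astrocyte, 0.09 with endothelial and -0.009 with interferon genes. The other 79 values for lists under these settings kept their sign and side of the threshold. Signal limits LHX1, GLRB and PRKCA most, which lay in the lower part of the array.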

Other observations

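The dim second probe set of PRKCA had r = -0.38 with the bright one over 18 retinas (rho = -0.40, permutation p = 0.114 and 0.102). It moved against SCGN, with r = -0.68 (permutation p = 0.00189, adjusted over 8 relations of the dim probe sets 0.0151) and rho = -0.55 (permutation p = 0.0186). Without its 2 farthest retinas r was -0.30. Within diets it was -0.84 among sialyllactose and -0.42 among control retinas. The other 7 relations of the dim probe sets of PRKCA and SEPT4 with the bright markers had adjusted p from 0.346 to 0.746.

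Of all 16798 other tested probe sets, 5.94% had r above 0.5 with PRKCA and 5.33% below -0.5, and for LHX1 the shares were 5.55% and 7.76%. For SEPT4 they were 3.73% and 3.23%, for GLRB 2.10% and 2.55%, and for SCGN 1.43% and 1.3%. SCGN thus had the fewest strong correlations of the 5 genes on this array. Of the vessel genes, PDGFRB, a pericyte receptor, had the most negative r with SEPT4 (-0.63) and ESAM, an endothelial adhesion molecule, the most positive (0.59), both named after their values were seen.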
